A study of Mus musculus with 8 samples.

Results

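Transcripts of 36 autophagy and lysosome genes were measured in mouse liver on 8 Affymetrix Mouse Genome 430 2.0 arrays, which read a gene with 1 or more probe sets. The genes were listed by name, with no threshold on their values but with earlier results of these data known: 18 genes of the autophagy machinery, 17 genes of lysosomal enzymes and membrane proteins, and Tfeb, a transcription factor for lysosomal genes. They are 36 of 18193 genes that a probe set with a single gene symbol reads, each gene is read here through the probe set with the highest mean signal, and all 36 were bright enough to be tested. The 4 groups, of 2 arrays each, were wild type (WT) mice aged 3 months, 12 months or 19 months and Sirt1-null (MT) mice aged 3 months. All mice came from mixed 129, FVB and Black Swiss stock, and MT mice were homozygous for a germline deletion in Sirt1, the gene of an NAD-dependent deacetylase, a genotype of which most animals die as embryos. Livers were collected in the morning between 9 and 11. Text and methods of the study give different numbers of animals or samples per group, and the sources used here do not say whether an array held RNA of 1 mouse or of a pool, so p-values measure only the spread between arrays, which may be technical.

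In autophagy, a kinase complex and a lipid kinase start a double membrane, a pair of ubiquitin-like systems attach Atg8-family proteins to it, and cargo receptors tie those proteins to what is to be degraded. The closed vesicle then fuses with a lysosome, where acid hydrolases break down its content. In hepatocytes this route supplies amino acids and fatty acids between meals and removes damaged mitochondria, and lysosomal acid lipase frees fatty acids and cholesterol from stored lipid. Many lysosomal promoters carry a CACGTG core, most typically in the form TCACGTGA, which Tfeb and its relatives bind. The same CACGTG core is the E-box of the Clock and Bmal1 complex.

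Promoters that hold this core are shown because they are what many members share that their selection by name did not use. RefSeq promoters (GRCm38.p6, 250 bases before to 50 after the start) were found for 29 of the 36 genes, and 10 of these held CACGTG, against 8.09% of 27025 genes with a promoter. TCACGTGA, which contains CACGTG, was found in 5 of the 29 against 1.12% of all genes. Both motifs read the same on either strand. Lysosomal genes held CACGTG in 6 of 14 promoters and TCACGTGA in 4 of 14, and autophagy genes in 4 of 14 and 1 of 14. A match describes the letters of a promoter and is no evidence of binding. The runs below are given 5′ to 3′ on the strand of the gene, with CACGTG in capitals.
Ctsa (chr2:164833758-164833787, plus strand), with a TCACGTGA 12 bases before the start and another just after it: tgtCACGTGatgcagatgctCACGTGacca
Ctsd (chr7:142387903-142387942, minus strand), 98 bases before the start: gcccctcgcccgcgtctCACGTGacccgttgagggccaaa
Gla (chrX:134601177-134601249, minus strand), 227 and 194 bases before the start: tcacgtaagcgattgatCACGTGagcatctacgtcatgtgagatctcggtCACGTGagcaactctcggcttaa
Mcoln1 (chr8:3500431-3500496, plus strand), 71 and 45 bases before the start: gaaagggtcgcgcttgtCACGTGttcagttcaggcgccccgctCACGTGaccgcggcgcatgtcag
Lamp1 (chr8:13159083-13159160, plus strand), with copies of the core 61, 45, 28 and 15 bases before the start: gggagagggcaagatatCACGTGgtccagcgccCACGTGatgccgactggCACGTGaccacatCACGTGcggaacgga
Atg3 (chr16:45158718-45158780, plus strand), the autophagy gene with TCACGTGA, 71 bases before the start: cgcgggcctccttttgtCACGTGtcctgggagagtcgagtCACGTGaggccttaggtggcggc
The other promoters with CACGTG were those of Ctsl, Atg5, Atg7 and Bnip3. In the comparison of MT with WT mice the 6 lysosomal genes with the core had log2 differences of -0.29 (Ctsa), -0.14 (Ctsd), -0.59 (Ctsl), -0.64 (Gla), -0.13 (Lamp1) and -0.18 (Mcoln1), and the 4 autophagy genes 0.10 (Atg3), 0.08 (Atg5), -0.37 (Atg7) and 0.20 (Bnip3). Lysosomal genes with a promoter that lacked the core ranged from -0.66 (Ctsc) to 0.24 (Scarb2), all but Hexa and Scarb2 below 0. None of these passed the test described next, and a part of the core in the differences was not tested.

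Array medians lay between 74.5 and 82.8 signal units. The Sirt1 probe set read 589 and 539 in young WT mice and 615 and 713 in MT mice. The deletion removes part of the gene, and where the probe set lies relative to it is not known here, so this checks neither genotype nor labels. Hepatocyte markers such as albumin were abundant on all 8 arrays. Although the methods describe the mutant mice as male, the Xist probe sets lay at or above the 95.2nd percentile and those of 3 Y-linked genes at or below the 43.1st on all 8 arrays. The log2 ratio of the 3′ to the 5′ control probe set of pyruvate carboxylase, a measure of RNA quality, was 3.88 to 4.25 on young WT arrays, 4.54 to 5.10 at 12 months, 4.77 to 5.86 at 19 months and 3.88 to 3.93 on MT arrays. It was higher on both arrays of either older group than on both young WT arrays, as were the ratios of beta-actin and Gapdh. The MT arrays differed from each other in those ratios. Beta-actin was at 0.97 and 1.48 on MT arrays against 1.22 and 1.09 on young WT arrays, and Gapdh at -0.62 and -0.38 against -0.59 and -0.51. The part of RNA quality in the differences with age or genotype was not tested.

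Young MT livers were compared with WT livers of the same age to ask which transcripts depend on Sirt1. The lysosomal genes were mostly lower in MT liver, by small amounts: 14 of 17 had a log2 difference below 0, with a median of -0.14, against a median of 0.0045 over all 10976 genes tested. Autophagy genes were divided, with 8 of 18 below 0 and a median of 0.04, although their mean difference was -0.06. None of the 36 members passed the test (limma, Benjamini-Hochberg over all 22519 tested probe sets, adjusted p under 0.05), while 0.515% of all tested probe sets did. By unadjusted p under 0.05, 1 member was higher (background 7.28% of probe sets) and 6 were lower (background 6.18%). Counted as genes on representative probe sets, 851 of 10976 were higher and 813 lower. The higher member was Tfeb, whose young WT signals were dim. The t-test of the methods was applied to the probe sets tested here, with a fold over 1.5 and an unadjusted p under 0.05. On representative probe sets it picked 3 members, Gabarapl1, Gla and Ctsl, against 3.95% of all tested probe sets. After Benjamini-Hochberg adjustment it picked 0. For 31 of the 36 genes the 95% interval lay within 1 log2 unit on either side of 0. The smallest difference that any tested probe set was called on in this comparison was 0.75 on the log2 scale, and apart from Tfeb no member differed by more than 0.67 on its representative probe set. The lysosomal count stayed at 14 of 17 with quantile normalization and with arrays centred on their medians, with medians of -0.13 and -0.17.

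Gabarapl1, an Atg8-family protein of the autophagosome membrane, had the smallest p of all members. Its probe set (1416419_s_at) read 10953 and 10555 in young WT liver and 6121 and 7442 in MT liver, so that both MT arrays lay well below both WT arrays. The log2 difference was -0.67 ± 0.15 (SE, 95% interval -1.01 to -0.33, adjusted p = 0.0881). A second probe set of the gene read 5792 and 6002 against 3508 and 4004, with a difference of -0.65 (adjusted p = 0.0991). The suffix of the brighter one marks probes that also match other transcripts, so its signal may include a relative of Gabarapl1. The same suffix (s_at) is on the brightest probe sets of Lipa, Becn1, Wipi1 and Mcoln1. It is also on dimmer ones of Atg5, Ctsc, Lamp2, Ctsz and Wipi1. Map1lc3a is read through a probe set with the suffix x_at, which carries a like warning. Dimmer probe sets of Ctsh, Ctsz and Becn1, among others, have that suffix too. The other Atg8-family genes differed less. Gabarap was at 11758 and 12102 in WT and 10342 and 10594 in MT mice (-0.19), Map1lc3a at 4244 and 4356 and 3816 and 4558 (-0.04), and Map1lc3b at 6757 and 7447 and 5281 and 7067 (-0.22). On these probe sets Gabarap arrays did not overlap between the groups, while those of Map1lc3a and Map1lc3b did. Map1lc3b depended on the probe set, with 1 of 3 tested above 0 (1415930_a_at, 0.16). Its probe set 1415929_at differed by -0.40, with 3707 and 3756 in WT and 2926 and 2738 in MT mice.

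Ulk1, a kinase that starts autophagy, read 1052 and 1374 in WT and 764 and 927 in MT mice, a difference of -0.51 ± 0.19 (SE, 95% interval -0.93 to -0.10, adjusted p = 0.269). Its relative Ulk2 read 905 and 858 and 931 and 989, with a difference of 0.12. Becn1, a subunit of the lipid kinase complex that nucleates the membrane, was at 2159 and 1961 in WT and 2385 and 2702 in MT mice, a difference of 0.30 ± 0.15 (SE, 95% interval -0.03 to 0.63, adjusted p = 0.411). On these probe sets arrays of all 3 genes were separated by genotype, Ulk1 lower and the others higher in MT mice. For Becn1 and Ulk2 the direction depended on the probe set. Of the 4 tested Ulk2 probe sets 2 were above 0 and 2 below. A dim one of these (1439591_at) read 178 and 149 in WT and 85 and 70 in MT mice, a difference of -1.08. The means over the probe sets of Becn1 and Ulk2 differed by -0.05 and -0.23. Here and below, such means include probe sets too dim to be tested where a gene has any. Of 5 Becn1 probe sets 4 were tested, while all 4 of Ulk2 were. Wipi1 and Wipi2, which bind the lipid this kinase makes, differed by -0.32 and 0.10 (-0.14 and 0.02 with probe sets averaged), and Atg9a, a membrane protein that feeds the growing vesicle, by 0.01. None of these passed the test.

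Among genes of the ubiquitin-like systems, Atg3 (0.10), Atg4b (0.13), Atg12 (0.15) and Atg16l1 (0.24) had differences above 0, and Atg7, which activates both ubiquitin-like proteins, had -0.37. Atg7 arrays read 672 and 689.5 in WT and 611 and 453 in MT mice, but a second Atg7 probe set had the opposite sign (0.39, adjusted p = 0.417). With probe sets averaged Atg7 differed by -0.05, which includes probe sets too dim to be tested, and Atg3 by -0.12. For Atg5, which is joined to Atg12, the size of the difference depended on the probe set. Its brightest probe set read 1811 and 1634 in WT and 2094 and 1569.5 in MT mice (0.08). A dimmer one (1418236_s_at) read 774 and 689.5 in WT and 1723 and 1369 in MT mice, a difference of 1.07 ± 0.21 (SE, 95% interval 0.60 to 1.54, adjusted p = 0.0631), the smallest p of all 80 tested probe sets of the members. The remaining one (1418235_at) read 705 and 566 and 1481 and 832 (0.81, adjusted p = 0.25). Arrays overlapped between the genotypes on the brightest probe set and not on the other two. The cargo receptors Sqstm1 and Bnip3, the latter on mitochondria, differed by -0.14 and 0.20.

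Lipa, the lysosomal acid lipase, was the lysosomal gene with the smallest p. It read 6839 and 6270.4 in young WT liver and 4770.3 and 4704 in MT liver, and both MT arrays lay below all 6 WT arrays of any age. The log2 difference was -0.47 ± 0.12 (SE, 95% interval -0.74 to -0.20, adjusted p = 0.129), and its other 2 probe sets differed by -0.50 and -0.45. Ctsl, a cysteine protease, read 22392 and 20436 in WT and 14165 and 14277 in MT mice, a difference of -0.59 ± 0.18 (SE, 95% interval -0.99 to -0.19, adjusted p = 0.184). Again both MT arrays lay below the 6 WT arrays, while with the probe sets of Ctsl averaged the difference was -0.27. Its second probe set was too dim to be tested. Gla, the alpha-galactosidase that removes terminal galactose from glycolipids, read 313 and 286 in WT and 194 and 191 in MT mice, a difference of -0.64 ± 0.24 (SE, 95% interval -1.19 to -0.09, adjusted p = 0.294). One of its 12-month WT arrays was as low as the MT arrays.

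**Figure D1:**
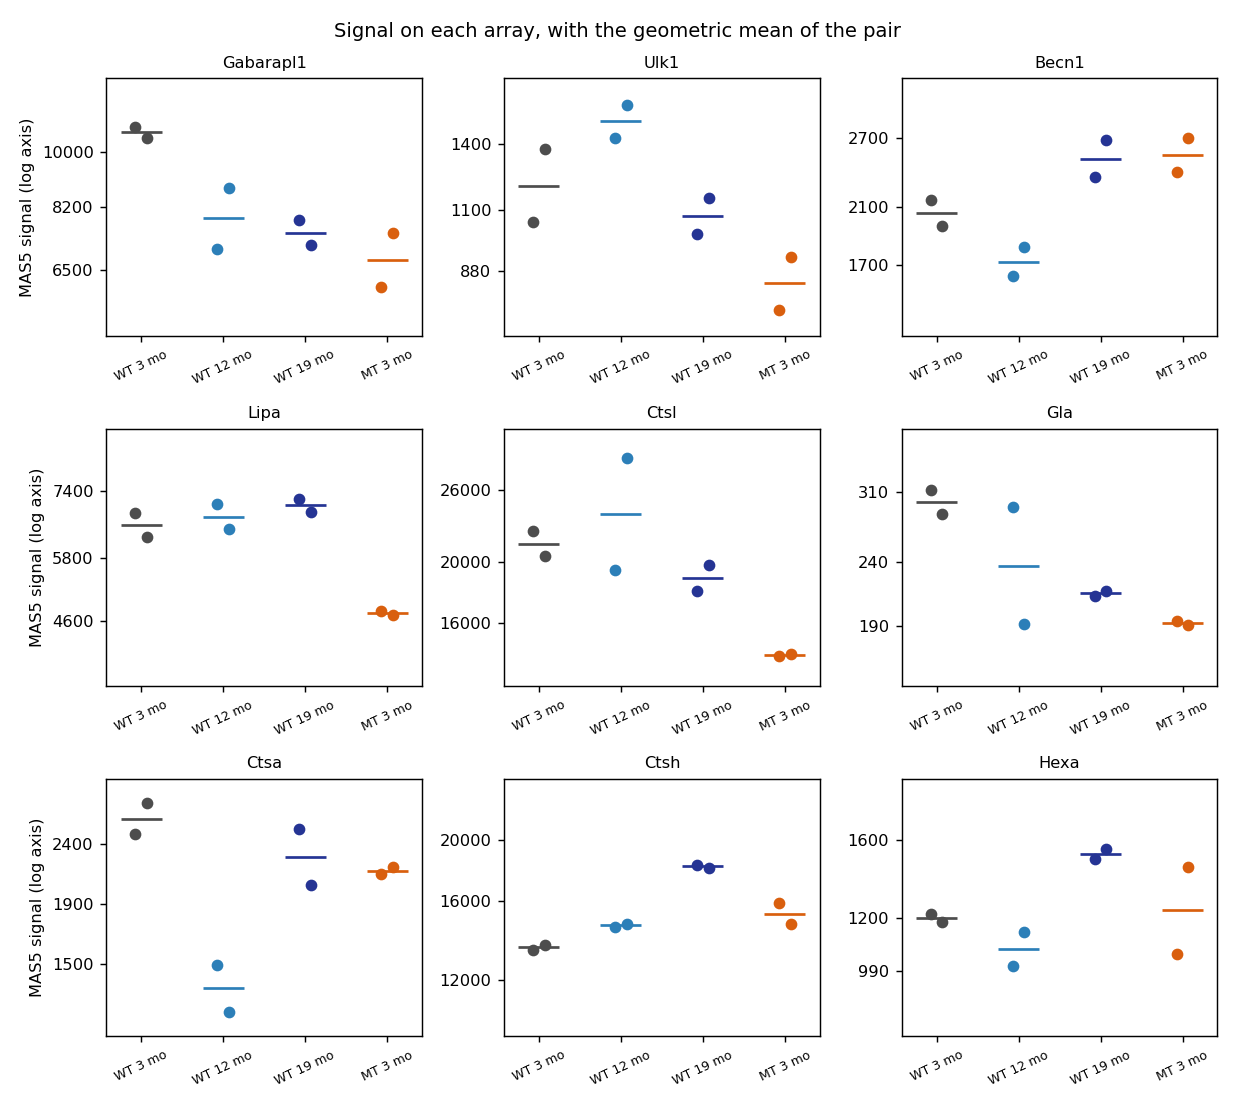
MAS5 signal on a log axis (own range in each panel) for 9 named members by group, where each point is an array and each line the geometric mean of its group. Gabarapl1 is highest on both 3-month WT arrays, Lipa and Ctsl are lowest on both MT arrays, and Ctsa is lowest on both 12-month arrays.

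Most of the other proteases were also below 0. Ctsc, a dipeptidyl peptidase, read 14766 and 13641 in WT and 11332 and 7144 in MT mice (-0.66, adjusted p = 0.298), with the MT arrays far apart from each other. All 3 of its probe sets were lower in MT mice, the other 2 by -0.91 and -0.72. Ctss, a protease abundant in antigen-presenting cells, read 3648 and 3635 against 2501 and 2841 (-0.45), and its arrays were separated too. Differences were -0.29 for Ctsa, -0.24 for Ctsz, -0.14 for Ctsd and -0.08 for Ctsb, while Ctsh, an aminopeptidase, had 0.18. In the membrane class, Lamp1 (-0.13), Lamp2 (-0.07) and the calcium channel Mcoln1 (-0.18) were below 0, and Scarb2, which carries a lipid hydrolase to the lysosome, was above it (0.24). The cholesterol exporters Npc1 and Npc2 had -0.03 and -0.07, and Hexa, a subunit of a ganglioside-degrading hexosaminidase, had 0.04. All 3 tested Npc2 probe sets were below 0, and its average of 0.10 includes a probe set too dim to be tested.

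Lamp2, which codes for several membrane protein isoforms, again depended on the probe set. The brightest read 23968 and 24312 in WT and 23447 and 22469 in MT mice. Another (1428094_at) read 19546 and 18446 and 14032 and 13213, a difference of -0.48 ± 0.12 (SE, 95% interval -0.75 to -0.21, adjusted p = 0.117), and one more (1416343_a_at) differed by -0.44. Every MT array lay below the WT arrays of 3 months on all 4 Lamp2 probe sets. Over the 23 members with more than 1 tested probe set, 13 had all their probe sets on the same side of 0 in this comparison, and 10, 13 and 12 did in the comparisons of 12 with 3, 19 with 3 and 19 with 12 months.

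**Figure D2:**
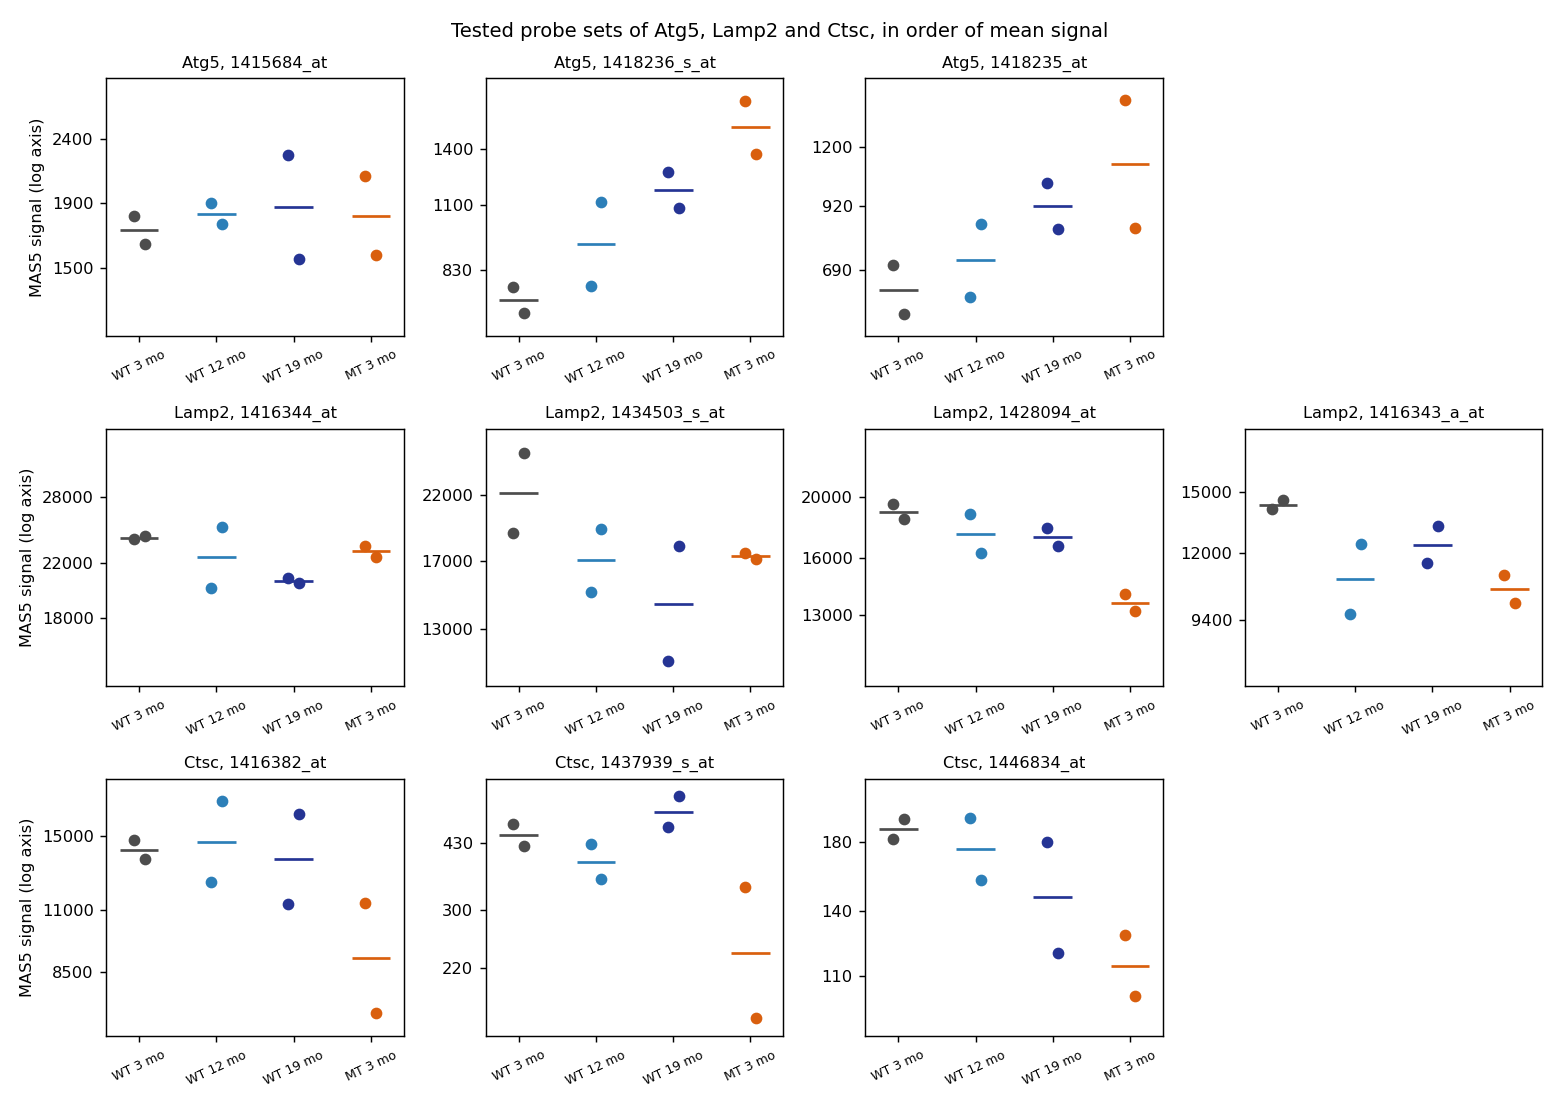
MAS5 signal on a log axis (own range in each panel) for every tested probe set of Atg5, Lamp2 and Ctsc by group, where each point is an array and each line the geometric mean of its group. The MT arrays of Atg5 overlap with young WT arrays on the brightest probe set and not on the other 2, and all probe sets of Lamp2 and Ctsc have both MT arrays below both 3-month WT arrays.

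The lysosomal class leaned below 0 on either MT array. Against the mean of young WT mice, 12 of 17 lysosomal genes were lower on MT array 1 and 14 of 17 on MT array 2. For 11 of 17 both MT arrays lay below both young WT arrays, against 24% of all genes tested, and for 2 above, against 24.4%. Among autophagy genes 6 were separated lower and 4 higher. These counts carry no test, since genes of a sample are not replicates.

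**Figure D3:**
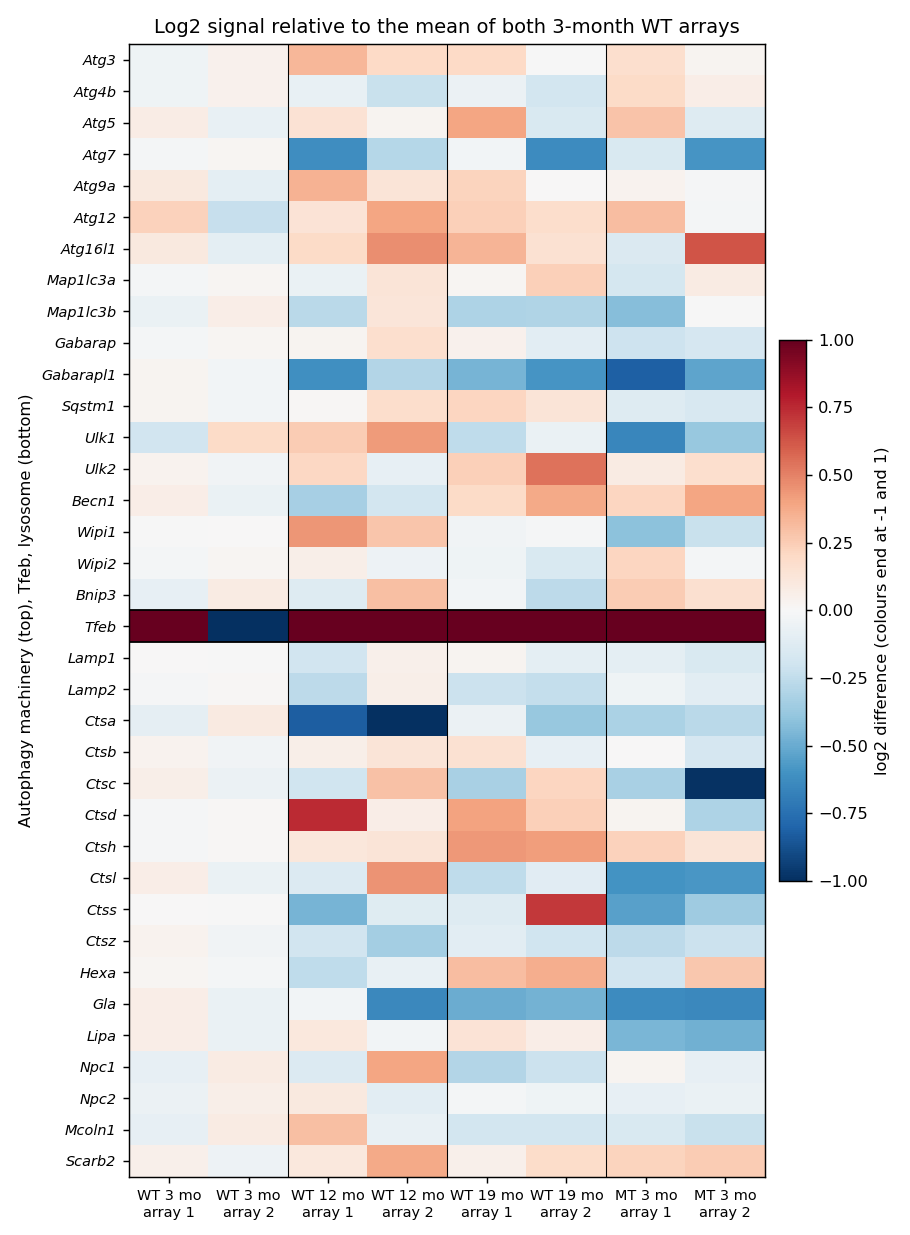
Log2 signal of each of the 36 members on each array, relative to the mean of both 3-month WT arrays (red higher, blue lower, colours ending at 1 log2 unit). Most lysosomal rows are blue on both MT arrays, Ctsa is deep blue on the 12-month arrays, and the Tfeb row is saturated because its signals are low and far apart.

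Kupffer cells are the resident macrophages of the liver and rich in lysosomes, and in bulk liver fewer cells of a type cannot be told apart from less RNA per cell. Of 18 macrophage markers (Kupffer cells included), 13 were lower in MT mice, with a median log2 difference of -0.25, and their summed signal was 29029 to 32253 on MT arrays against 37178 to 38354 on young WT arrays. All 18 of these markers were bright enough to be tested. Hepatocyte markers had a median of 0.11, with 10 of 11 above 0, which became 0.06 and 7 of 11 with quantile normalization. With quantile normalization or median centring the Kupffer median stayed between -0.25 and -0.28. Medians of the other marker lists in MT mice were -0.10 for sinusoidal endothelium, -0.42 for T and NK cells, -0.07 for B and plasma cells, -0.80 for antigen presentation, -0.08 for neutrophils, 0.17 for stellate cells and 0.63 for bile duct. Of these lists 4 of 7 antigen presentation markers, 4 of 8 for T and NK cells, 2 of 6 for neutrophils and 1 of 5 for bile duct were bright enough to be tested. The antigen presentation median against young WT mice was -1.14 on MT array 1 and -0.34 on MT array 2, and those for T and NK cells were -0.84 and -0.46. Their part in the lysosomal values was not tested.

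**Figure D4:**
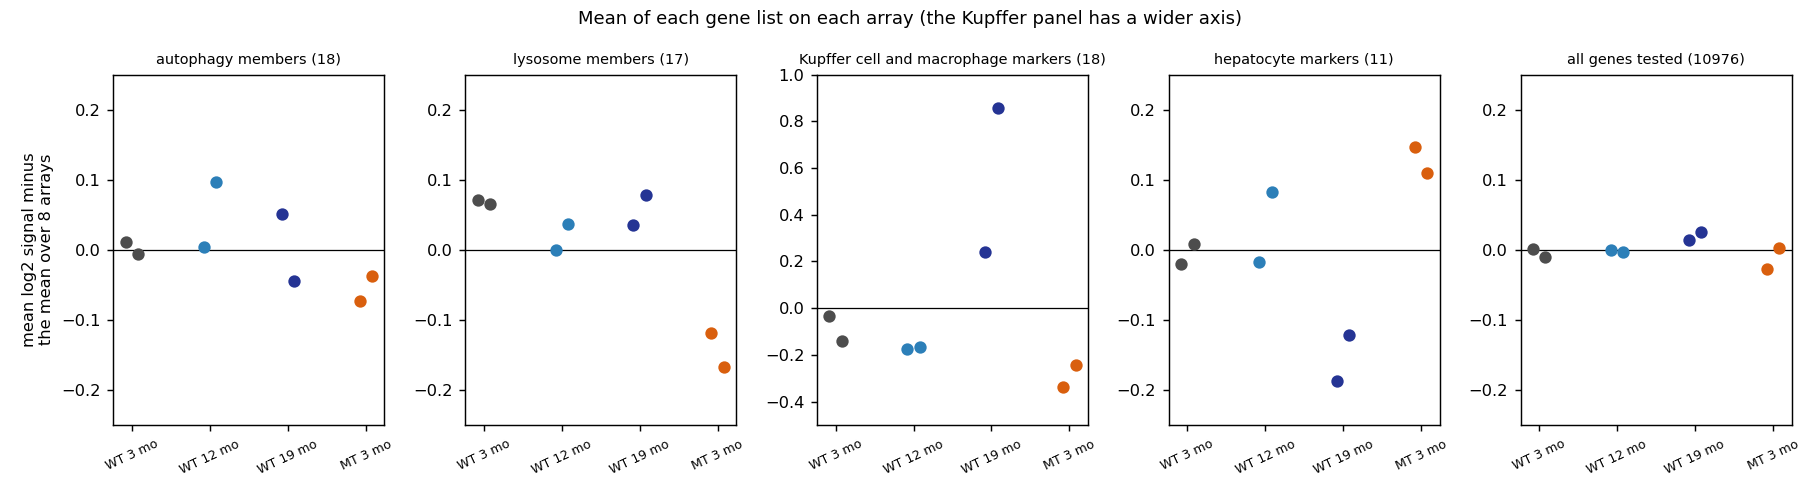
Mean log2 signal of 5 gene lists on each array, after subtracting each gene's mean over the 8 arrays, with both arrays of a group side by side (the macrophage panel has a wider axis). Lysosomal genes are lowest on both MT arrays (-0.12 and -0.17), macrophage markers are lowest on the MT arrays and highest on both 19-month arrays, and the mean over all genes tested stays near 0.

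Tfeb had the least reliable signal. Its arrays read 78.8 and 10.8 in young WT mice, 114 and 138 at 12 months, 173 and 111 at 19 months and 172 and 108 in MT mice. Both young WT arrays were below their array's median and far apart, and no other array was as low. None of its differences passed the test, and no fold is given against signals this dim.

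In WT mice at 12 months the comparison with 3 months asks what differs by middle age, and it uses the same young WT arrays as the MT comparison. Of the 36 genes 23 were above 0, with medians of 0.09 for autophagy and 0.04 for lysosomal genes against 0.01 over all genes tested. None passed the test, as for nearly all probe sets (0.0133% called). Without adjustment, at p under 0.05, 2 members were higher (background 4.01% of probe sets), one of them Tfeb, and 3 lower (background 4.57%). Counted as genes, 509 of 10976 were higher and 481 lower. The t-test of the methods picked 1 member, Ctsa, against 2.23% of probe sets at its own threshold, and 0 after adjustment. Arrays did not overlap for 19 of 36 members, against 41.1% of all genes. Marker medians at this age were -0.14 for macrophages, 0.03 for hepatocytes and 0.65 for B and plasma cells (3 of 6 above 0). The other marker lists lay between -0.22 (antigen presentation) and 0.25 (bile duct). Igha, of the B and plasma cell list, passed the test (2.49, adjusted p = 0.00902). The part of these markers in the values at 12 months was not tested.

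Ctsa stood out in this comparison. The gene codes for a serine carboxypeptidase that also protects a sialidase and a galactosidase in the lysosome. It read 2499 and 2823 in young WT liver, 1499 and 1247 at 12 months, 2549 and 2045 at 19 months and 2135 and 2198 in MT liver. Both 12-month arrays lay below the other 6. The difference of 12 from 3 months was -0.96 ± 0.16 (SE, 95% interval -1.33 to -0.59, adjusted p = 0.151). This was the largest on the representative probe set of any member apart from Tfeb. The difference of 19 from 12 months was 0.74 ± 0.16 (SE, 95% interval 0.37 to 1.11, adjusted p = 0.203) and rests on the same 12-month arrays. A second, dim Ctsa probe set differed by -0.09 at 12 months, and with both averaged the differences were -0.52 and 0.36.

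Gabarapl1 was also lower at 12 months, at 7029.8 and 8784, a difference of -0.45 ± 0.15 (SE, 95% interval -0.79 to -0.11, adjusted p = 0.463). Wipi1 read 773 and 778 at 3 months and 1052 and 943 at 12 months, a difference of 0.36 (adjusted p = 0.575). Atg3, which transfers Atg8-family proteins to lipid, read 6700.0 and 7084 and 8659.8 and 7896 (0.26, adjusted p = 0.621). The arrays of all 3 genes were separated by age. With probe sets averaged Wipi1 differed by 0.07, with 3 of its 6 probe sets below 0, and Atg3 by 0.12. Ctsz, a carboxypeptidase, read 17521 and 16724 at 3 months and 14977 and 13523 at 12 months (-0.27, adjusted p = 0.561). Ctsd, the main aspartic protease of the lysosome, read 4422 and 4476 and 7457 and 4655, with a difference of 0.41 (adjusted p = 0.647) that was 0.07 without the first 12-month array. On their representative probe sets the other members differed by -0.45 (Atg7) to 0.34 (Ulk1), Tfeb apart, and with probe sets averaged these were 0.0065 and -0.05. The averages of these genes include probe sets too dim to be tested, while the 2 tested Atg7 probe sets were at -0.45 and -0.43.

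In WT mice at 19 months, again against the same young arrays, 17 of 36 genes were above 0, with medians of 0.04 for autophagy and -0.04 for lysosomal genes and 0.02 over all genes. The lysosomal median was 0.05 with quantile normalization. None passed the test, with 0.0355% of probe sets called. At an unadjusted p under 0.05, 3 were higher (background 7.18% of probe sets), Tfeb among them, and 1 lower (background 5.3%). Counted as genes, 799 of 10976 were higher and 664 lower. The t-test of the methods picked 0 members, against 3.33% of probe sets. Arrays did not overlap for 23 of 36 members, against 50.5% of all genes. For 34 of 36 genes at this age, and 34 at 12 months, the 95% interval lay within 1 log2 unit of 0.

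Ctsh was the lysosomal gene with the smallest p at 19 months. It read 13368 and 13632 at 3 months, 14567 and 14730.0 at 12 months and 18273 and 18054 at 19 months, and both old arrays lay above the other 6. The difference of 19 from 3 months was 0.43 ± 0.11 (SE, 95% interval 0.19 to 0.67, adjusted p = 0.215), and a second probe set differed by 0.45. Gla read 212 and 216 at 19 months (-0.48, adjusted p = 0.469). Hexa was at 1217 and 1186 at 3 months and 1488 and 1546 at 19 months (0.34, adjusted p = 0.488). Among autophagy genes Gabarapl1 read 7796 and 7126, a difference of -0.53 ± 0.15 (SE, 95% interval -0.87 to -0.19, adjusted p = 0.248). Its arrays at 12 and 19 months and in MT mice all lay below both young WT arrays, and since those are shared, the 3 differences are not independent. Ulk2 read 1039 and 1284 at 19 months (0.39, adjusted p = 0.397) and Becn1 2345 and 2682 (0.29, adjusted p = 0.48), with Ulk2 at 0.08 and Becn1 at -0.09 when their probe sets were averaged.

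**Figure D5:**
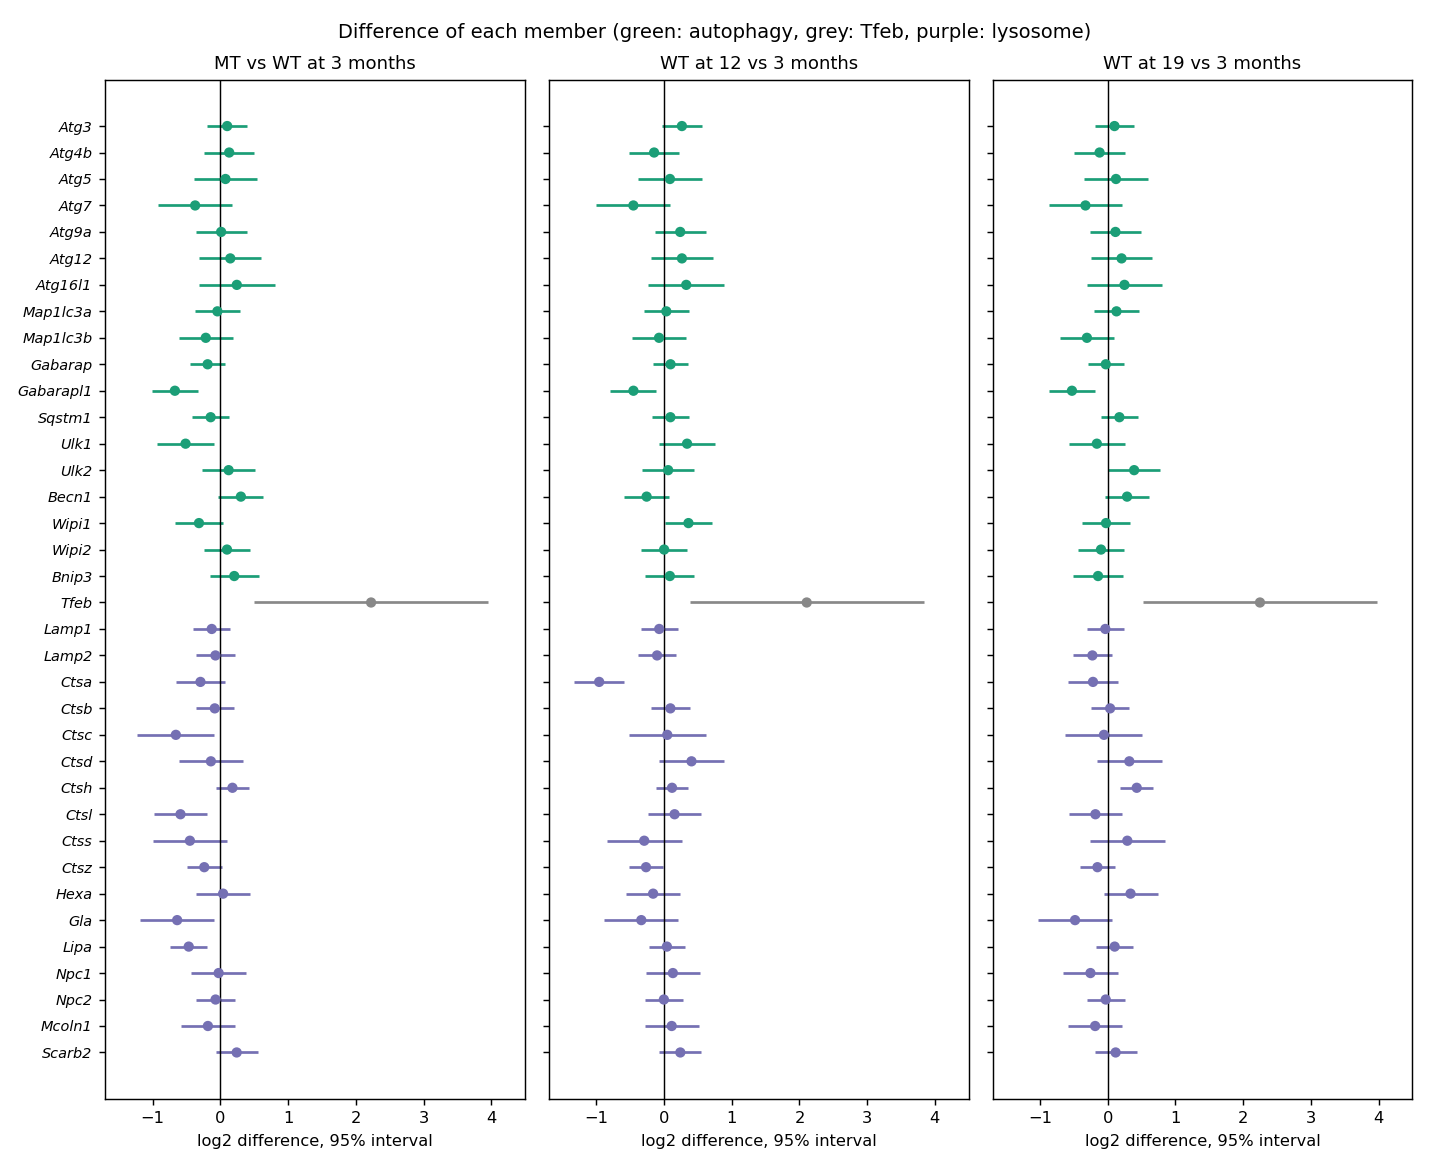
Log2 difference with its 95% interval (limma) for each of the 36 members in 3 comparisons with the same 3-month WT arrays, autophagy genes in green, Tfeb in grey and lysosomal genes in purple. Most intervals include 0, and none of the differences passes at an adjusted p under 0.05. Ctsa at 12 months lies farthest below 0, and the Tfeb values rest on dim young WT signals.

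At 19 months all 18 macrophage markers were above 0 against young WT mice, with a median of 0.58, and their summed signal was 46036 on array 1 and 69603 on array 2. Ctss was high on the second of these arrays only, with signals of 3323 and 5958, so that its difference from 3 months was 0.29 with both arrays and -0.13 with array 1 alone. Ctsh was nearly equal on both arrays and differed by 0.44 with array 1 alone. Hepatocyte markers had a median of -0.21, and of 0.01 with quantile normalization. Other medians at 19 months were 1.64 for B and plasma cells, 0.86 for neutrophils, 0.67 for bile duct and 0.36 for antigen presentation. They were -0.0047 for sinusoidal endothelium, -0.24 for T and NK cells and -0.31 for stellate cells. Some of these markers were too dim to be tested. Igha, of the B and plasma cell list, passed the test (3.34, adjusted p = 0.00065). The part of these markers in the values at 19 months was not tested.

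Between 12 and 19 months, 15 of 36 genes were above 0, and the medians were -0.08 for autophagy and -0.06 for lysosomal genes. No probe set of the whole array passed (0% called). By unadjusted p under 0.05, 5 members were higher (background 6.39% of probe sets) and 2 lower (background 4.35%). Counted as genes, 637 of 10976 were higher and 583 lower. The t-test of the methods picked 0 members (2.33% of probe sets), and arrays were separated for 10 of 36 members against 42% of all genes. Besides Ctsa, Hexa was at 1009 and 1143 at 12 months and differed by 0.50 (adjusted p = 0.369), and Ctsh by 0.31 (adjusted p = 0.356). Becn1 went from 1635 and 1813 to 2345 and 2682, a difference of 0.54 ± 0.15 (SE, 95% interval 0.21 to 0.87, adjusted p = 0.286). Ulk1 went from 1432 and 1617 to 1006 and 1149.8 (-0.50, adjusted p = 0.389). Wipi1 differed by -0.39 (adjusted p = 0.427), but by 0.29 when its probe sets were averaged, and Becn1 then by 0.25.

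Members within a class differed in their course over age. Ulk1 was highest at 12 months and Becn1 lowest, and of the lysosomal genes Ctsa and Hexa were lowest at 12 months. None of these differences passed the test. For Ulk1 the difference of 12 from 3 months changed sign with probe sets averaged, which adds a probe set too dim to be tested.

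Other genes of the same pathways were read from 4 lists. Of 34 measured other autophagy genes, 23 were below 0 in MT mice, with a median of -0.10, and 0 passed in any comparison. The shares of all tested probe sets at an unadjusted p under 0.05 were 7.28% higher and 6.18% lower in MT mice, 4.01% and 4.57% at 12 months, 7.18% and 5.3% at 19 months, and 6.39% and 4.35% between 12 and 19 months. Of these 34 genes, 2 were higher and 5 lower in MT mice, 1 lower at 12 months, 3 lower at 19 months, and 1 higher and 1 lower between 12 and 19 months. Calcoco1, a relative of an autophagy cargo receptor, came closest. It read 483 and 502 in young WT mice, 270.3 and 343 at 12 months, 272 and 284 at 19 months and 229.6 and 242 in MT mice. Like Gabarapl1, it was highest on both young WT arrays, and its difference in MT mice was -1.06 ± 0.20 (SE, 95% interval -1.50 to -0.62, adjusted p = 0.055). Against the same arrays it differed by -0.69 at 12 months (adjusted p = 0.369) and -0.83 at 19 months (adjusted p = 0.19). With its probe sets averaged it differed by -0.74 in MT mice (adjusted p = 0.213), -0.62 at 12 months and -0.63 at 19 months. Between 12 and 19 months the smallest p was that of Rb1cc1, a scaffold of the Ulk1 complex (0.49, adjusted p = 0.355), whose mean over probe sets differed by 0.10.

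Of 41 measured other lysosomal genes, 27 were below 0 in MT mice, with a median of -0.15, and 0 of the 39 tested passed in any comparison. At an unadjusted p under 0.05, 3 were lower in MT mice, 3 lower at 12 months, 0 at 19 months, and 3 higher and 1 lower between 12 and 19 months. Dpp7, a dipeptidyl peptidase, read 1137 and 898 in young WT and 619.5 and 627 in MT mice (-0.70, adjusted p = 0.145). With its probe sets averaged the difference was -0.47 (adjusted p = 0.412). Man2b1, the lysosomal alpha-mannosidase, differed by -0.52 at 12 months (adjusted p = 0.297) and -0.29 at 19 months (adjusted p = 0.412), and Sort1, a sorting receptor, by 0.55 from 12 to 19 months (adjusted p = 0.33).

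Subunits of the proton pump that acidifies the lysosome lay on the other side in MT mice: 12 of 14 were above 0, with a median of 0.07. Against the mean of young WT mice 7 of 14 were below 0 on MT array 1 and 4 of 14 on MT array 2. Atp6v1c1 read 2129 and 1963 in young WT and 2784 and 3324 in MT mice, with separated arrays (0.57, adjusted p = 0.132), and 2667 and 2849 at 19 months (0.43, adjusted p = 0.308). Atp6v1b2 differed by 0.34 at 12 months (adjusted p = 0.664) and Atp6v1a by 0.45 between 12 and 19 months (adjusted p = 0.329). None of the 14 passed in any comparison. By unadjusted p under 0.05, 1 was higher and 1 lower in MT mice, 2 were higher at 19 months and 1 between 12 and 19 months.

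The last list held subunits and regulators of mTORC1, the kinase complex that holds autophagy and Tfeb in check when nutrients are plentiful, and relatives of Tfeb. Of its 25 measured genes 16 were below 0 in MT mice, with a median of -0.12. Flcn, which lets mTORC1 act on Tfeb, read 1521 and 1928 in young WT and 781 and 1071 in MT mice (-0.90, adjusted p = 0.097). This probe set has the suffix x_at, and with its 3 probe sets averaged Flcn differed by -0.62 (adjusted p = 0.488). Ddit4, an inhibitor of mTORC1 induced by stress, read 373 and 556 at 3 months and 716 and 737 at 12 months (0.67, adjusted p = 0.545), and differed by -0.72 from 12 to 19 months (adjusted p = 0.405). Rraga, a small GTPase that recruits mTORC1 to the lysosome, differed by 0.47 at 19 months (adjusted p = 0.31). In this list too, 0 of 24 tested genes passed in any comparison, and at an unadjusted p under 0.05 there were 1 higher and 1 lower in MT mice, 1 higher at 12 months, 1 of each at 19 months and 1 lower between 12 and 19 months.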

How the data were processed

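RNA from mouse liver was hybridised to 8 single-colour Affymetrix arrays. The authors deposited MAS5 signal intensity values on a linear scale, already scaled between arrays, with no MAS5 version named in the sources used here. Of 45101 probe sets, 64 controls were left out, 34945 carried 1 gene symbol, 932 several and 9160 none. Symbols came from the platform annotation, with 34741 matched by Entrez ID to a RefSeq table that changed 0 of them.

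Signals under 1 were set to 1 and put on the log2 scale. The upper 50% of probe sets by mean log2 signal (22519, at least 6.18) were fitted with limma 3.58.1 in R 4.3.3 (lmFit, eBayes with a variance trend), all 4 groups in 1 fit with 4 residual and 5.37 prior degrees of freedom. All p-values are two-sided, with Benjamini-Hochberg adjustment per comparison over all 22519 probe sets. Permuting 2 arrays against 2 reaches 0.333 at the least by an exact test, so no exact test was run. Calls came from limma, with the t-test of the methods reported beside it. That t-test used the same upper 50% of probe sets in place of the absence calls of the methods. Its member counts are on representative probe sets. The number of arrays limits the precision, and depth does not apply to arrays. Simulated data with known changes were used to test the fit.

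For each gene the probe set of highest mean stands for it. Averages over the probe sets of a gene include those too dim to be tested. Named members were those called, and otherwise the 3 of smallest p per class and comparison, and in each of 4 lists of other pathway genes the 1 of smallest p. Members, lists, markers and tests were chosen with earlier results of these data known. Probe sets of a gene, Ctsc, Lamp2 and the dimmer probe sets of Atg5, Ulk2 and Map1lc3b among them, were named after their values were seen. Promoters were searched with Python 3.11.15. A planned comparison of Atg8-family proteins was not run, and Npc1 and 6 other members had no promoter in the table used. Plots were drawn with matplotlib 3.10.9. Alternatives covered normalization, log offset, filter, groups in the fit, variance prior, test, threshold, a replicate block, probe set choice and leaving out each array.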

Additional observations from a re-analysis of the deposited data

How the results depend on the processing

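With 2 arrays a group, an adjusted p over 0.05 leaves differences within the printed intervals undecided, and signals near the array median, such as those of Tfeb, carry most error. No alternative based on limma with an adjusted p under 0.05, leaving out any array included, called a member. In the order MT against WT, 12 against 3, 19 against 3 and 19 against 12 months, 116, 3, 8 and 0 probe sets were called. Members numbered 1 in the first comparison at an adjusted p under 0.1, 7, 5, 4 and 7 at an unadjusted p under 0.05, and 3 and 1 in the first and second by the methods' t-test with an unadjusted p, against 0 in the others and 0 throughout after adjustment. Called probe sets were 890, 502, 750 and 524 by that t-test, 0 after its adjustment, 413, 5, 57 and 4 at an adjusted p under 0.1, and 3030, 1931, 2811 and 2419 at an unadjusted p under 0.05. Without a variance trend 9, 0 and 1 were called in the first 3 comparisons. A robust prior gave 233 in the first and 2 in the last. Fits of only the groups compared gave 12, 135 and 5 in the last 3, median centring 5 and 21 at 12 and 19 against 3 months, and no filter 3 in the last. Leaving out each array gave 15 to 250, 0 to 20, 2 to 30 and 0 to 11. Replicate numbers did not pair the arrays (correlations of -0.03 to 0.14 over 6 pairs of groups), and with a replicate block 129, 3, 25 and 0 probe sets and 0 members were called.

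Autophagy medians were -0.0882 in MT mice with probe sets averaged, against 0.0432, and ranged without 1 array from -0.0529 to 0.0707 in MT mice, 0.0410 to 0.131 at 12 months, -0.0397 to 0.0370 at 19 months and -0.174 to -0.0124 between 12 and 19 months. Lysosomal medians without 1 array were -0.214 to -0.131, -0.135 to 0.0508, -0.0853 to -0.0284 and -0.0588 to 0.0733 in the same order. With median centring they were -0.169, 0.0912, -0.0163 and -0.0891, with quantile normalization 0.0549 at 19 months and 0.00969 between 12 and 19 months, and with probe sets averaged -0.0157 at 12 months and 0.0337 between 12 and 19 months. Of 716 values for 40 gene differences, 709 kept direction and side of the threshold. With probe sets averaged, Becn1 turned to -0.0549 in MT mice and -0.0921 at 19 months, and Wipi1 to 0.29 between 12 and 19 months. Calcoco1 passed in MT mice in 4 settings (upper 30% of probe sets, robust prior, and without either 12-month array). The cause of these shifts was not tested.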
